A study of Drosophila melanogaster with 13 samples.

Results

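The 10 genes described here encode receptors for 3 biogenic amines in Drosophila melanogaster: the serotonin receptors 5-HT1A, 5-HT1B, 5-HT2A, 5-HT2B and 5-HT7, the octopamine receptors Oamb, Octbeta1R, Octbeta2R and Octbeta3R, and the octopamine and tyramine receptor Oct-TyrR. They were matched by FlyBase symbol. The rule itself uses no measured value, but it was set with earlier results of these data known. All 10 were found among the 17370 genes counted. The mRNA came from adult heads in 12 RNA samples, 1 for each combination of larval diet, sex and strain. Every RNA sample pooled 70 to 80 heads, collected from flies between 2 and 6 h old. LPS larvae ate food low in protein and high in sugar, with a protein to carbohydrate ratio of 0.1, and HPS larvae ate food high in protein and low in sugar, with a ratio of 0.43. Vials held 40 larvae and stood at 25 °C in a 12 h light cycle, with 10 vials for each strain on each diet; vials are described by strain and diet, not by sex. The strains SD6, SD3 and SD2 are isofemale lines, each a stock bred from a single wild female, and each is represented by that stock alone. The labels name no transgene or induced mutation in any group. Diet and sex each split the samples 6 against 6, each strain label covers 4 samples, and each group of sex and diet holds 3.

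All 10 receptors are membrane proteins that act through G proteins. Serotonin is made from tryptophan in a small set of neurons and sets sleep, feeding, aggression and circadian behaviour. Tyramine and octopamine, the invertebrate counterparts of adrenaline and noradrenaline, are made from tyrosine in other neurons and act on arousal, locomotion, reward learning, energy use and starvation responses. 5-HT1A, 5-HT1B and Oct-TyrR lower cyclic AMP when bound, 5-HT7 and the Octbeta receptors raise it, and 5-HT2A, 5-HT2B and Oamb act largely through calcium.

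Each sample held 7.84 M to 27.55 M reads assigned to genes. All 10 receptors passed the filter on low counts, with 110 to 3249 reads per receptor and sample, for which counting error alone gives a CV of 1.75% to 9.54%. Levels are CPM, gene reads divided by the library's gene reads in M after scaling by TMM factors. Markers of neurons, glia, photoreceptors, muscle, fat body and haemocytes were all present in the heads: none of the 10 genes on each list stayed at or below 3 reads in all samples. Heads are mixed tissue, so fewer cells of a type and less RNA per cell cannot be told apart in any difference given here. Counts of 2 libraries from different runs were summed for male LPS SD2, and the smaller run holds no samples other than SD2 males. Male HPS SD2 was sequenced in the smaller run alone.

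The strain labels of 2 libraries went against their own reads. Over 197 genes that differed between SD6 and SD3 by more than 2 on the log2 scale in the other 10 samples, the male LPS library with the SD3 label lay at 1 and the one with the SD6 label at 0.0186, as the median over these genes on a scale where each gene's mean is 1 in the other SD6 samples and 0 in the other SD3 samples. The receptors' own levels were compared only by which strain mean was nearer. This was done also where the means were close, as for 5-HT1B at 20.55 CPM in SD3 and 19.64 CPM in SD6, or where a value lay beyond both. The library labelled male LPS SD3 was nearer to the mean of the other SD6 samples than to that of the other SD3 samples for 10 of 10 receptors. For the library labelled male LPS SD6 the reverse held for 9 of 10, the exception being 5-HT7. The same count was not made over all genes. Genes that differ between these strains, not the receptors' own levels, were the reason why strains were compared in the 10 other samples. Diet and sex were compared in all 12 samples as labelled and again in those 10.

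5-HT2A, the serotonin receptor linked to sleep and feeding behaviour, had the highest level per length of the 10. Its level was 23.3 ± 1.63 CPM per kb of exon (SD, n = 12), and in all 12 samples it was above the next gene, Oamb, at 11.1 ± 1.16. Oamb, 5-HT1A at 10.53 ± 1.68 and Octbeta1R at 10.4 ± 2.43 CPM per kb were not separated by their spread. Octbeta2R followed at 8.33 ± 1.84 CPM per kb, Oct-TyrR at 5.99 ± 0.832 and Octbeta3R at 5.63 ± 0.792. The 3 lowest were serotonin receptors, with 5-HT1B at 4.93 ± 0.437, 5-HT7 at 4.31 ± 0.701 and 5-HT2B at 2.86 ± 0.548 CPM per kb (SD, n = 12 each). Neighbours in this order overlapped in mean ± SD except 5-HT2A with Oamb and 5-HT7 with 5-HT2B. Exon lengths, from 3682 bases for Oct-TyrR to 7519 for Octbeta2R, come from the BDGP6.54 annotation and may differ from those behind the counts.

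**Figure D1:**
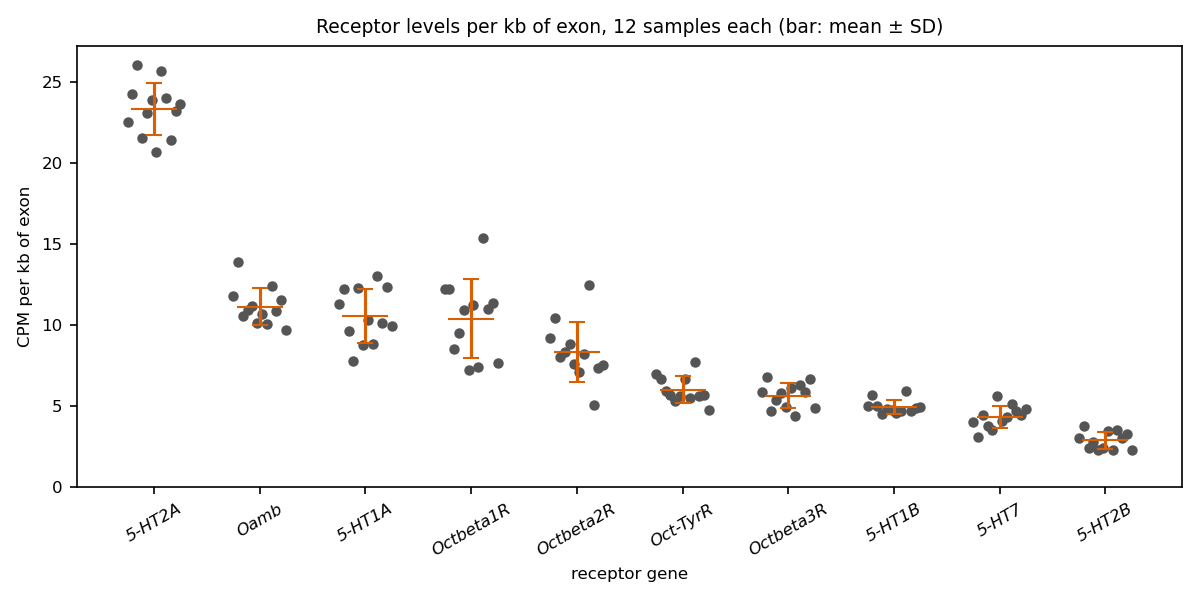
Level of each receptor gene in CPM per kb of exon, ordered by mean, with 1 point for each of the 12 samples and a bar for mean ± SD. 5-HT2A, at 23.3 ± 1.63, lies above every sample of the other 9 genes, and 5-HT2B, at 2.86 ± 0.548, is lowest.

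5-HT2A was also the steadiest. Its highest sample was 1.26-fold its lowest, and the SD of its log2 CPM over the 12 samples was 0.10. For 5-HT1B this SD was 0.12, and the median over all tested genes was 0.21. The most variable were the octopamine receptors Octbeta2R, with an SD of 0.31 and a 2.46-fold range, and Octbeta1R, with 0.34 and 2.13-fold. Within the 12 samples the gene pairs that moved most alike were Octbeta1R with Octbeta3R (Pearson's r of log2 CPM 0.875) and 5-HT2B with Octbeta3R (0.859), and the pair that moved most unlike was 5-HT7 with Oamb (−0.548). Over all 45 pairs of receptors the median r was 0.466, with 5 pairs above 0.8 and 13 below 0. These r describe 12 samples that share 3 strains and common scaling, and no test is attached to them.

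Most receptor differences that passed a test lay between the strains SD6 and SD3. SD6 heads held less mRNA of the octopamine receptors Octbeta1R, Octbeta3R and Oamb and of the serotonin receptors 5-HT1A and 5-HT2B than SD3 heads, and more 5-HT7, by 1.202-fold to 1.477-fold. These 6 of 10 receptors passed edgeR's quasi-likelihood test at a Benjamini-Hochberg adjusted p below 0.05, against 20.2% of all 10373 genes tested, of which 10.2% were lower and 9.95% higher in SD6. The median log2 fold change of the receptors was −0.22, against 0.01 over all genes tested. In SD6 against SD2, 3 of 10 receptors passed, beside 22.4% of all genes. In SD3 against SD2, 1 of 10 passed, beside 23.2% of all genes.

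Octbeta1R, a beta-adrenergic-like receptor that restrains octopamine-driven synaptic growth at the larval neuromuscular junction, differed most. Its level was 45.9, 39.1 and 41.4 CPM in the SD6 samples (male HPS, female HPS and female LPS), against 66.0, 59.0 and 61.5 CPM in the SD3 samples in the same order. In the SD2 samples it was 66.1 and 60.7 CPM in males (HPS and LPS) and 51.45 and 59.15 CPM in females (HPS and LPS). Every SD6 sample lay below every SD3 and SD2 sample. The log2 fold change was −0.56 ± 0.08 (SE) for SD6 against SD3, a 1.48-fold lower level (edgeR, adjusted p = 0.000237), and −0.45 ± 0.07 for SD6 against SD2, 1.37-fold lower (edgeR, adjusted p = 0.000626). SD3 against SD2 gave 0.11 ± 0.07 (edgeR, adjusted p = 0.3).

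Octbeta3R, a related receptor that acts in the larval ecdysone gland to permit metamorphosis, followed the same order. Its SD6 samples had 28.5, 29.96 and 29.7 CPM, against 41.4, 35.5 and 40.7 CPM in SD3. The SD2 samples had 35.8 and 37.1 CPM in males and 32.8 and 35.6 CPM in females. Here too the SD6 samples lay below all others, with a log2 fold change of −0.42 ± 0.08 against SD3 (edgeR, adjusted p = 0.00283) and −0.24 ± 0.08 against SD2 (edgeR, adjusted p = 0.0402). The difference from SD2 was close to the threshold, with an adjusted p of 0.0928 in DESeq2. It also lost its call without the male HPS SD6 sample (−0.19), any 1 of the 4 SD2 samples or either female LPS sample of SD3 or SD6, with adjusted p from 0.0571 to 0.198 (edgeR).

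Oamb, an alpha-adrenergic-like octopamine receptor of the mushroom bodies needed for reward learning, had 58.15, 55.8 and 53.7 CPM in SD6, against 76.7, 61.6 and 63.6 CPM in SD3. The groups did not overlap, with a log2 fold change of −0.27 ± 0.08 (edgeR, adjusted p = 0.0276). Without the male HPS SD3 sample, the highest, the value was −0.19 ± 0.08 (edgeR, adjusted p = 0.135). Without the male HPS SD6, female HPS SD6, female LPS SD3 or female LPS SD6 sample it was −0.24 to −0.27 with an adjusted p of 0.0748 to 0.106. Octbeta2R, the receptor through which octopamine drives synaptic growth in hungry larvae, had 56.7 to 60.1 CPM in SD6, against 54.9 to 78.35 CPM in SD3, and its −0.17 ± 0.12 did not pass (edgeR, adjusted p = 0.348). Oct-TyrR had 17.35 to 21.75 CPM in SD6, against 19.5 to 24.5 CPM in SD3, at −0.13 ± 0.09 (edgeR, adjusted p = 0.387). The 95% interval for Oct-TyrR ran from −0.33 to 0.08, which includes the value found for Oamb.

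**Figure D2:**
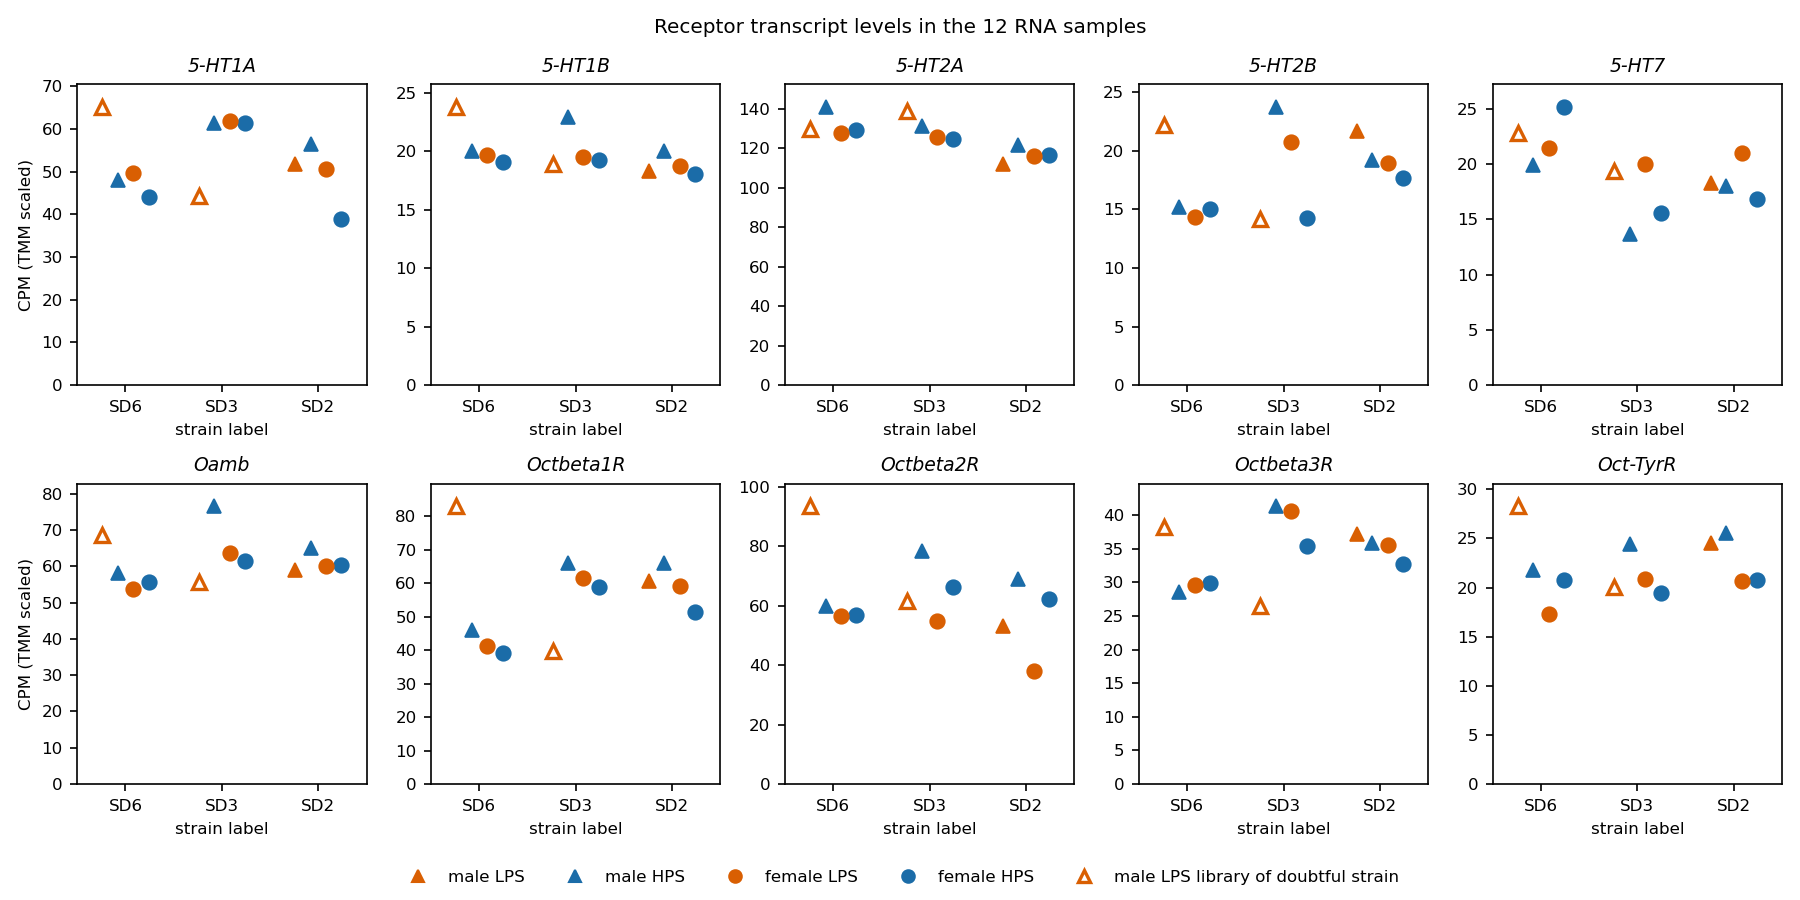
Receptor levels in CPM (scaled by TMM factors) in the 12 samples by strain label, with 1 panel for each gene, axes from 0, triangles for males, circles for females, orange for LPS, blue for HPS and open triangles for the 2 libraries whose reads go against their strain label. Octbeta1R lies between 39.1 and 45.9 CPM in the 3 other SD6 samples while the open triangle under the SD6 label stands at 83.1 CPM.

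Among serotonin receptors, 5-HT1A, which lowers cyclic AMP and promotes sleep, was the receptor in which SD3 stood apart from both other strains. Its SD6 samples had 48.1, 44.0 and 49.8 CPM (male HPS, female HPS and female LPS), against 61.3, 61.45 and 62.0 CPM in SD3. The SD2 samples had 56.5 and 51.8 CPM in males and 38.9 and 50.6 CPM in females. No SD6 or SD2 sample reached the SD3 range. The log2 fold change was −0.38 ± 0.10 for SD6 against SD3 (edgeR, adjusted p = 0.0139) and 0.38 ± 0.09 for SD3 against SD2 (edgeR, adjusted p = 0.0103). SD3 against SD2 called 1 of 10 receptors, against 23.2% of all genes. The first value lost its call without the male HPS SD6 (−0.35, adjusted p = 0.0631), female HPS SD3 (−0.32, adjusted p = 0.0543) or female LPS SD3 sample (−0.40, adjusted p = 0.0537), and the second without the female HPS SD2 (0.25, adjusted p = 0.0944) or female LPS SD3 sample (0.40, adjusted p = 0.051).

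5-HT7, which raises cyclic AMP and acts in courtship and learning, went the other way. It had 19.9, 25.2 and 21.4 CPM in SD6, against 13.7, 15.6 and 20.0 CPM in SD3. The highest SD3 sample and the lowest SD6 sample overlapped slightly. SD6 against SD3 gave 0.42 ± 0.12, a 1.335-fold higher level (edgeR, adjusted p = 0.03005). It was 0.30 ± 0.13 without the female HPS SD6 sample (edgeR, adjusted p = 0.142), and without the male HPS SD3, male HPS SD6 or female HPS SD3 sample it was 0.35, 0.42 and 0.37 with adjusted p of 0.114, 0.0748 and 0.0922. With the strain labels of the 2 doubtful libraries exchanged the value was 0.25 ± 0.13 (edgeR, adjusted p = 0.157, with 30.3% of genes called).

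5-HT2B, which acts in sleep homeostasis, had 15.2, 15.0 and 14.4 CPM in SD6, against 23.8, 14.3 and 20.7 CPM in SD3. The female HPS SD3 sample lay below all 3 SD6 samples, so the groups overlapped. The value was −0.40 ± 0.12 (edgeR, adjusted p = 0.03655), and −0.29 ± 0.13 without the male HPS SD3 sample (edgeR, adjusted p = 0.175). The call was also lost without the male HPS SD6, female LPS SD3 or female LPS SD6 sample (−0.33 to −0.35, adjusted p = 0.13 to 0.202) and without the female HPS SD2 or male LPS SD2 sample (−0.40, adjusted p = 0.0508 and 0.0512). Against SD2, with 19.2 and 21.7 CPM in males and 17.65 and 18.9 CPM in females, SD6 did not overlap, but the difference of −0.32 ± 0.12 missed the threshold (edgeR, adjusted p = 0.0649).

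5-HT2A had 140.9, 129.3 and 127.7 CPM in SD6, against 121.6 and 111.8 CPM in SD2 males and 116.3 and 115.8 CPM in SD2 females. The groups did not overlap, and SD6 was higher by 0.19 ± 0.06, or 1.14-fold (edgeR, adjusted p = 0.049). This value lay at the threshold and passed in 6 of 20 alternatives. Leaving out any 1 sample but the male HPS SD3 sample gave 0.15 to 0.20 with an adjusted p from 0.0515 to 0.226. With Octbeta1R and Octbeta3R it made 3 of 10 receptors called for SD6 against SD2, where 22.4% of all genes were called. 5-HT1B, which acts in the circadian clock's light response, had 19.1 to 20.05 CPM in SD6, against 19.2 to 22.9 CPM in SD3 and 18.1 to 20.0 CPM in SD2. It did not pass in any strain comparison, with log2 fold changes from −0.06 to 0.14.

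**Figure D3:**
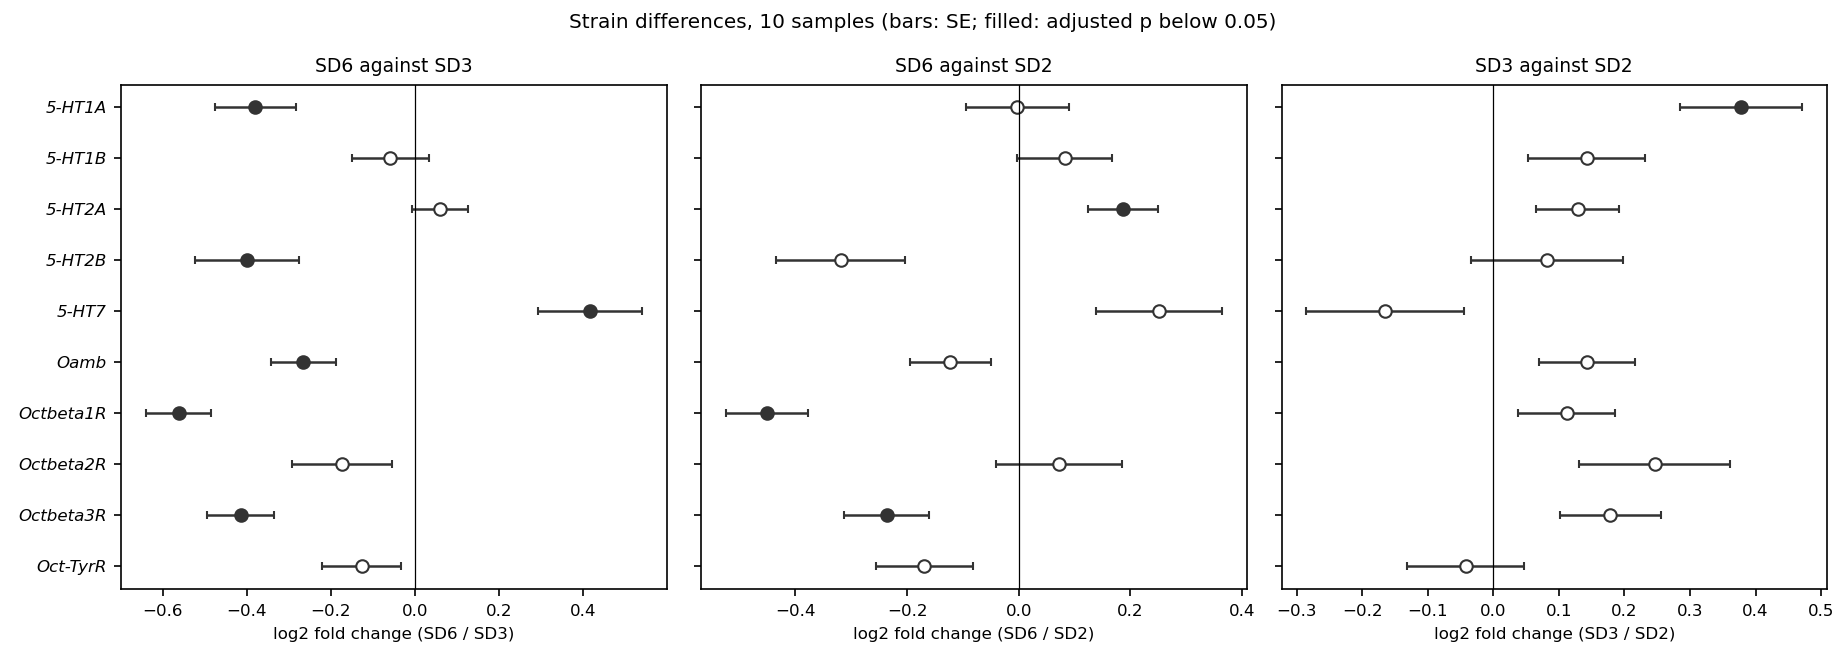
Log2 fold changes of the 10 receptors between strains in 10 samples, with bars for the SE and filled points for an adjusted p below 0.05 (edgeR). SD6 against SD3 has 6 filled points, from −0.56 for Octbeta1R to 0.42 for 5-HT7, SD6 against SD2 has 3 and SD3 against SD2 has 1.

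All 6 SD6 and SD3 samples in this comparison came from the larger sequencing run. Leaving out both SD2 males, the only samples with reads from the smaller run, kept Octbeta1R, Octbeta3R, Oamb and 5-HT1A called for SD6 against SD3, with Octbeta1R at −0.56 ± 0.07 (edgeR, adjusted p = 0.000826). 5-HT2B and 5-HT7 were then at adjusted p of 0.0678 and 0.0543, with log2 fold changes of −0.40 and 0.42. Of the SD6 against SD2 calls it left Octbeta1R alone, at −0.46 ± 0.08 (edgeR, adjusted p = 0.00594), and 5-HT1A remained called for SD3 against SD2 at 0.45 ± 0.10 (edgeR, adjusted p = 0.0169). With the 2 doubtful libraries kept as labelled, 0 of 10 receptors passed in the 3 comparisons in edgeR, where 0%, 10% and 9.81% of genes passed for SD6 against SD3, SD6 against SD2 and SD3 against SD2. In the same order 1, 2 and 1 receptors had an unadjusted p below 0.05, beside 504, 2470 and 2522 of all 10026 genes. The 2 libraries were not used for the calls, and each can be read beside them. The library labelled male LPS SD3 had 39.8 CPM of Octbeta1R and 26.5 CPM of Octbeta3R. For the library labelled male LPS SD6 these were 83.1 and 38.3 CPM. The values of the library labelled SD3 lie inside or below the range of the 3 other SD6 samples, and those of the library labelled SD6 above or inside the range of the 3 other SD3 samples.

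Markers of several head tissues also differed between the same strains. For SD6 against SD3, 7 of 10 glial markers were called lower and 1 higher, with a median log2 fold change of −0.38, and 3 of 10 muscle markers were called lower, with a median of −0.30. Of 10 neuronal markers 1 was called lower, with a median of −0.13. Of all genes 10.2% were called lower and 9.95% higher. Summed levels of the glial list were 4546 to 5354 CPM in SD6 and 5118 to 6480 CPM in SD3, and those of the neuronal list were 4293 to 5102 CPM in SD6 and 5067 to 5260 CPM in SD3. For SD6 against SD2, 4 glial markers were called lower and 4 photoreceptor markers higher, beside 22.4% of all genes called. In that comparison 3 fat body markers were called higher and 3 lower, 1 muscle marker higher, and 2 haemocyte markers and 1 neuronal marker lower. For SD3 against SD2, 4 glial and 5 photoreceptor markers were called higher and 1 and 2 lower, beside 23.2% of all genes called. There 3 fat body markers were called higher and 3 lower, 1 muscle marker higher and 1 haemocyte marker lower. Fat body markers were called 3 higher and 4 lower in SD6 against SD3, photoreceptor markers 1 higher and 1 lower, and haemocyte markers 0 in either direction. The part of these markers in the receptor differences was not tested.

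The genes whose levels followed a receptor most closely over the 12 samples were ranked by Pearson's r of log2 CPM. For Octbeta1R these were Syn, the synaptic vesicle protein synapsin, at 0.984, the RNA-binding gene cpo at 0.972 and B4 at 0.968. For Octbeta3R they were CG15082 at 0.948, CG7029 at 0.943 and CG43707 at 0.938. For 5-HT1A they were the netrin receptor gene fra at 0.943, hts at 0.922 and lncRNA:CR46123 at 0.919. For 5-HT2A the tyramine receptor gene TyrRII, at 0.946, stood between CG13722 at 0.956 and RhoGEF64C at 0.942. For 5-HT7 these were CG34219 at 0.952, Pms2 at 0.877 and the neuropeptide gene Dh44 at 0.870. Oamb was closest to CG3726 at 0.959, the glutamate receptor gene GluRIIA at 0.948 and Ip6k at 0.945, and 5-HT2B to CG32373 at 0.931, CG8745 at 0.913 and mura at 0.906. All samples share the 3 strains, so these r are descriptions.

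Larval diet was the factor the study was set up to test. No receptor passed the test for it: in the 12 samples as labelled 0 of 10 passed edgeR's quasi-likelihood test after Benjamini-Hochberg adjustment and 0 had an unadjusted p below 0.05, and DESeq2 and limma-voom also called 0. Of all 10026 genes 0.0997% were called by edgeR, 1.12% by DESeq2 and 0.18% by limma-voom, and 8.82% had an unadjusted p below 0.05. Log2 fold changes of LPS against HPS ran from −0.18 for Octbeta2R to 0.18 for 5-HT7, 5 of 10 were positive, beside 52.96% of all genes, and the widest 95% bounds were −0.49 and 0.50. Larger log2 changes than these lie outside the intervals of this fit alone. Without the 2 doubtful libraries the widest bounds were −0.51 and 0.35. As labelled they were −0.77 and 0.73 within females and −0.55 and 0.69 within males.

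**Figure D4:**
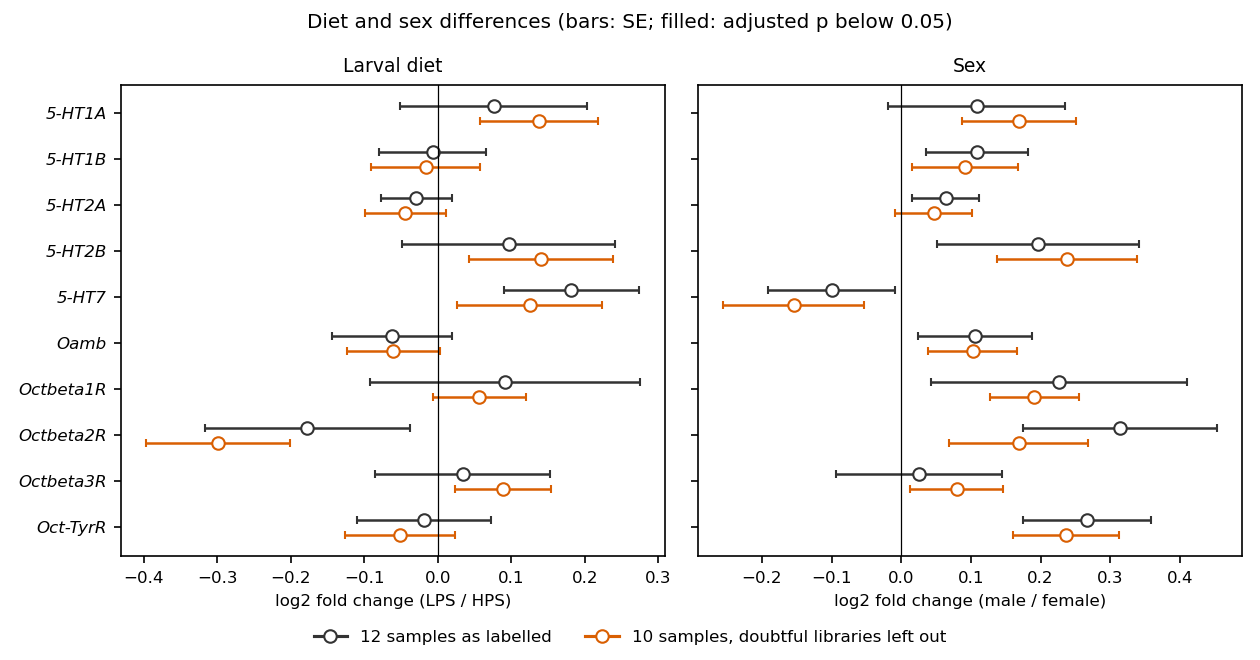
Log2 fold changes of the 10 receptors for LPS against HPS (left) and males against females (right), with bars for the SE, in the 12 samples as labelled (dark) and in 10 samples without the 2 doubtful libraries (orange). No point is filled, since no adjusted p was below 0.05 in edgeR, and Octbeta2R lies lowest for diet at −0.18 and −0.30.

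Octbeta2R was the receptor nearest to a diet difference without the 2 doubtful libraries, while in the 12 samples as labelled 5-HT7 was nearest. Octbeta2R ran from 38.0 over a median of 55.8 to 93.65 CPM in the 6 LPS samples, against 57.1, 64.4 and 78.35 CPM in the 6 HPS samples (lowest, median and highest). The highest LPS value is that of the library labelled male LPS SD6, and it alone lay above its HPS partner of the same sex and strain label, 93.65 against 60.1 CPM. The other 5 LPS samples were lower than their partners, by 0.01 to 0.71 on the log2 scale. With the labels of the 2 doubtful libraries exchanged 4 of 6 LPS samples were lower, since the library labelled male LPS SD3, at 61.7 CPM, then lies above male HPS SD6, at 60.1 CPM. As labelled the fold change was −0.18 ± 0.14 (edgeR, adjusted p = 0.772).

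Without the 2 doubtful libraries the Octbeta2R groups did not overlap, with 53.2, 38.0, 54.9 and 56.7 CPM in LPS (male SD2, then female SD2, SD3 and SD6), against 57.1 to 78.35 CPM in HPS. The value was −0.30 ± 0.10, with an unadjusted p of 0.00933 that did not survive adjustment (edgeR, adjusted p = 0.179, with 1.42% of genes called and 14.1% at an unadjusted p below 0.05). DESeq2 and limma-voom also left it uncalled, at adjusted p of 0.117 and 0.172, where they called 2.67% and 1.52% of genes. It was lower in 4 of 4 pairs. It passed only where the female LPS SD6 sample, whose 56.7 CPM is close to the 57.1 CPM of its HPS partner, was left out as well, at −0.44 (edgeR, adjusted p = 0.0457). The 2 libraries of the male LPS SD2 sample gave 62.95 CPM in the smaller run and 46.75 CPM in the larger, a log2 difference of 0.43 between them. That is larger in size than the fitted diet value. Over 7796 genes the SD of this difference was 0.18. The HPS partner of this sample, male HPS SD2 at 69.0 CPM, was sequenced in the smaller run alone. Run and diet can therefore not be told apart in this pair, which is 1 of the 4.

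5-HT7 ran from 18.2 over a median of 20.5 to 22.8 CPM in LPS samples, against 13.7, 17.4 and 25.2 CPM in HPS samples. In 5 of 6 pairs of a sex and strain label the LPS sample was higher, the exception being SD6 females with 21.4 CPM on LPS and 25.2 CPM on HPS. With the 2 doubtful labels exchanged it was higher in 4 of 6, since the 19.3 CPM of the library labelled male LPS SD3 then stands beside 19.9 CPM in male HPS SD6. The fold change of 0.18 ± 0.09 did not pass (edgeR, adjusted p = 0.615).

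Octbeta1R, which differed most between strains, had its widest diet differences in the pairs of the 2 doubtful libraries. Male LPS against male HPS gave 83.1 against 45.9 CPM under the SD6 label and 39.8 against 66.0 CPM under the SD3 label, while the other 4 pairs differed by −0.12 to 0.20 on the log2 scale. The SE of its diet fold change was 0.18 in 12 samples and 0.06 in 10, with fold changes of 0.09 and 0.06 on the log2 scale (edgeR, adjusted p = 0.933 and 0.766).

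**Figure D5:**
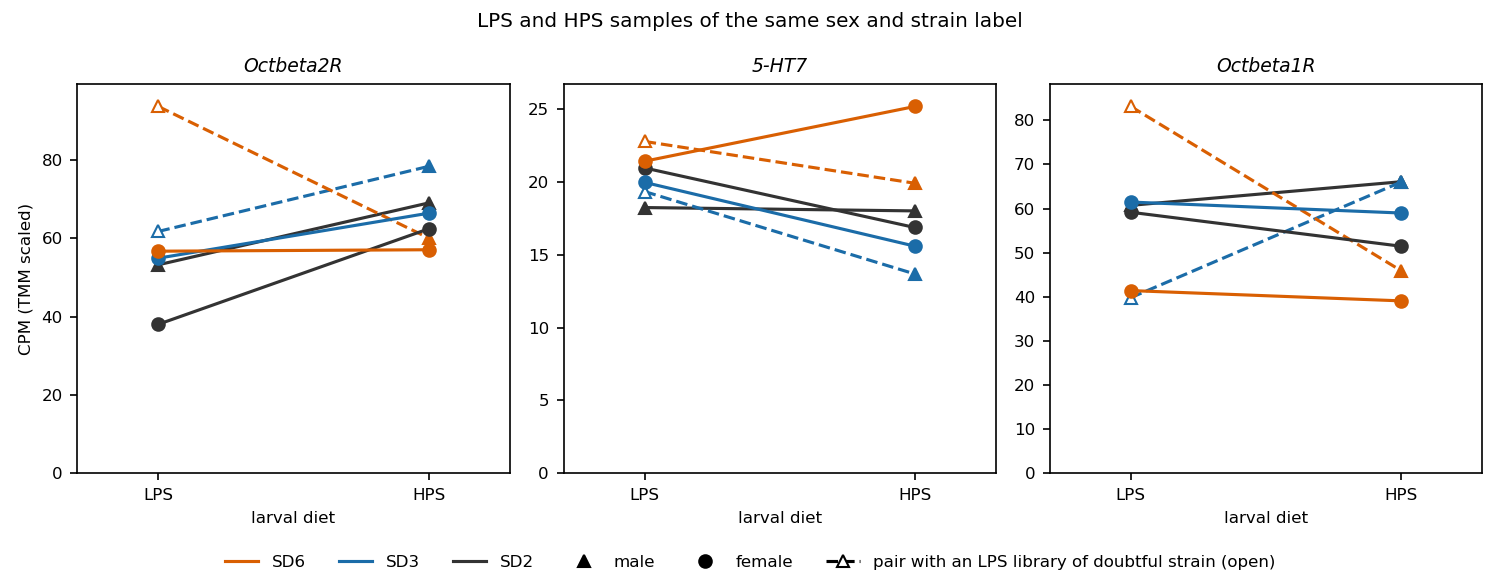
CPM of Octbeta2R, 5-HT7 and Octbeta1R in LPS and HPS samples joined by sex and strain label, with axes from 0, colours for strain labels, triangles for males, circles for females, and broken lines with an open symbol for the 2 doubtful LPS libraries. Octbeta2R is lower on LPS in 5 of 6 pairs as labelled, the exception being the library labelled male LPS SD6 (93.65 against 60.1 CPM), and in 4 of 6 with the 2 doubtful labels exchanged, and the broken lines cross for Octbeta1R.

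The other 7 receptors, like 5-HT7 and Octbeta1R, had LPS and HPS ranges that overlapped with and without the 2 libraries. Mean levels were 53.95 ± 7.97 CPM on LPS and 51.7 ± 9.46 CPM on HPS for 5-HT1A, and 19.8 ± 2.02 and 19.9 ± 1.65 CPM for 5-HT1B (SD, n = 6 each, LPS then HPS). 5-HT2A averaged 124.9 ± 9.77 CPM on LPS and 127.4 ± 8.52 CPM on HPS, and 5-HT2B 18.7 ± 3.60 and 17.5 ± 3.58 CPM. Oamb averaged 60.1 ± 5.45 CPM on LPS and 62.96 ± 7.42 CPM on HPS, Octbeta3R 34.6 ± 5.43 and 34.0 ± 4.65 CPM, and Oct-TyrR 21.97 ± 3.87 and 22.1 ± 2.39 CPM. For 5-HT2A the 95% interval of the diet effect was the narrowest, from −0.14 to 0.08 on the log2 scale.

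Within females as labelled, 0 of 10 receptors passed for diet in edgeR and 0 had an unadjusted p below 0.05, and the same held within males, where 0% of all genes passed in either sex and 4.19% in females and 5.79% in males had an unadjusted p below 0.05. As labelled, the largest value in females was −0.33 ± 0.20 for Octbeta2R (edgeR, adjusted p = 1), and in males 0.23 ± 0.14 for 5-HT7 (edgeR, adjusted p = 0.893). An interaction term tested whether the diet effect differed in males from that in females. It passed for 0 of 10 receptors, with 0 at an unadjusted p below 0.05 against 1.8% of all genes, and 0% of genes called in edgeR. As labelled, values ran from −0.22 for 5-HT1A to 0.32 for Octbeta2R with 95% bounds as wide as −0.93 and 0.94. Without the 2 doubtful libraries 0 of 10 passed (edgeR) in females, in males or for the interaction, where 0.521%, 0% and 0% of genes were called and 10.7%, 8.36% and 4.7% had an unadjusted p below 0.05. In females 1 receptor then had an unadjusted p below 0.05, Octbeta2R at −0.32 ± 0.13 (edgeR, adjusted p = 0.372). In males Octbeta2R was −0.26 ± 0.19 (−0.02 ± 0.20 as labelled) and 5-HT7 0.12 ± 0.18. The interaction then ran from −0.20 for Octbeta1R to 0.06 for Octbeta2R, with 95% bounds as wide as −0.55 and 0.56. As labelled, DESeq2 called 0 receptors in these 3 comparisons, with 0.12%, 0.19% and 0% of genes called in females, in males and for the interaction, and limma-voom called 0 receptors and 0% of genes. Neuronal markers had positive LPS against HPS values in 10 of 10, with a median of 0.19, 0 called in edgeR and 3 at an unadjusted p below 0.05. Their sum was 4783 to 7400 CPM on LPS and 4293 to 5467 CPM on HPS. The 7400 CPM belongs to 1 of the 2 doubtful libraries, and without these the highest sum in any strain was 5564 CPM, in SD2. Neuronal values were then still positive in 10 of 10, with a median of 0.14. Of the fat body markers 1 was called lower as labelled, beside 0.0997% of all genes called. Without the 2 doubtful libraries 4 of 10 fat body and 2 of 10 muscle markers were called lower on LPS and 0 higher. Of all genes 1.42% were called there. The part of these markers in the diet values was not tested.

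No receptor passed for sex as labelled, though 9 of 10 fold changes of males against females were positive, 5-HT7 being the exception. edgeR called 0 of 10, against 3.04% of all genes, with 2 at an unadjusted p below 0.05, against 17% of all genes. DESeq2 and limma-voom called 0, against 5.91% and 3.32% of genes. The median of the receptors was 0.11 on the log2 scale, and over all genes tested 53.14% were positive with a median of 0.01. Without the 2 doubtful libraries 0 of 10 were called, against 7.72% of genes, with 3 at an unadjusted p below 0.05, against 23.5% (edgeR). DESeq2 and limma-voom called 0 there, against 8.06% and 8.03% of genes.

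Oct-TyrR, which responds to tyramine more strongly than to octopamine in cell assays, came nearest. It ran from 20.1 over a median of 24.5 to 28.3 CPM in the 6 male samples, against 17.35, 20.7 and 20.9 CPM in the 6 female samples (lowest, median and highest). The lowest male sample, the library labelled male LPS SD3, lay inside the female range, and the other 5 lay above it. The fold change was 0.27 ± 0.09 (edgeR, adjusted p = 0.165) in 12 samples and 0.24 ± 0.08 (edgeR, adjusted p = 0.0794) in 10. With the strain labels of the 2 libraries exchanged it was 0.26 ± 0.07 and passed (edgeR, adjusted p = 0.0299, with 11.2% of genes called).

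Octbeta2R was higher in males in 6 of 6 pairs of a diet and strain label, also with the 2 doubtful labels exchanged. Males had 53.2 to 93.65 CPM with a median of 65.4, against 38.0 to 66.4 CPM with a median of 56.9 in females, so the ranges overlapped. The value was 0.31 ± 0.14 in 12 samples (edgeR, adjusted p = 0.28) and 0.17 ± 0.10 in 10 (edgeR, adjusted p = 0.333). Octbeta1R had 59.7 ± 9.50 CPM in the 4 males left without the doubtful libraries (SD, n = 4) and 51.9 ± 9.69 CPM in females (SD, n = 6), at 0.19 ± 0.06 (edgeR, adjusted p = 0.0895).

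The smaller run bears on the sex values, since it holds male reads only. Between the 2 libraries of male LPS SD2, 9 of 10 receptors had a higher CPM in the smaller run than in the larger, with a median log2 difference of 0.11, which for Oct-TyrR was 0.32, for Octbeta1R 0.35 and for Octbeta2R 0.43. Without both SD2 males Oct-TyrR was 0.27 ± 0.13 (edgeR, adjusted p = 0.56) and Octbeta2R 0.33 ± 0.19 (edgeR, adjusted p = 0.646). Markers of other head tissues moved with sex. In males 4 of 10 muscle, 2 of 10 fat body and 5 of 9 tested haemocyte markers were called lower, beside 218 of all 10026 genes. Summed fat body markers were 2825 to 5924 CPM in males and 6561 to 9984 CPM in females. That sum includes the yolk protein gene Yp1, which alone ran from 2.49 to 3340 CPM over the 12 samples. Neuronal markers had positive values in 10 of 10, with 0 called in edgeR and 1 at an unadjusted p below 0.05. Their part in the sex values was not tested.

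Genes that make, carry and take up these amines were called between strains at shares near those of all genes. Of 17 tested genes for synthesis, transport and other amine receptors, 4 were higher and 1 lower in SD3 than in SD2, beside 23.2% of all genes called in either direction. SerT, the serotonin reuptake transporter, was higher by 0.50 ± 0.09 (edgeR, adjusted p = 0.00137), Tdc2, the neuronal enzyme that makes tyramine, by 0.49 ± 0.13 (adjusted p = 0.0138), TyrRII by 0.61 ± 0.16 (adjusted p = 0.0171) and Trhn, the neuronal tryptophan hydroxylase of serotonin synthesis, by 0.28 ± 0.09 (adjusted p = 0.0477). Hn, the phenylalanine hydroxylase, was lower, at −0.31 ± 0.07 (adjusted p = 0.00611). SD6 against SD2, with 22.4% of all genes called, gave 3 higher, with TyrRII at 0.81 ± 0.15, SerT at 0.35 ± 0.09 and Tdc2 at 0.41 ± 0.12, and 1 lower, DopEcR, a receptor for dopamine and ecdysteroids, at −0.35 ± 0.09.

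SD6 against SD3, with 20.2% of all genes called, gave 1 higher, Hn at 0.37 ± 0.07 (edgeR, adjusted p = 0.00317), and 3 lower. These were DopEcR at −0.62 ± 0.09 (adjusted p = 0.000517), Ddc, the decarboxylase shared by serotonin and dopamine synthesis, at −0.40 ± 0.10 (adjusted p = 0.0126) and Octalpha2R, another octopamine receptor, at −0.38 ± 0.10 (adjusted p = 0.0167). The remaining genes of the list, Tdc1, Tbh, Vmat, prt, AANATL2, TyrR, Dop1R1, Dop1R2 and Dop2R, passed in no strain comparison. The median log2 fold change of the list was −0.12 for SD6 against SD3 and 0.20 for SD3 against SD2, beside 0.01 and −0.01 over all genes tested.

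With diet 0 of these 17 genes passed as labelled in edgeR, with 2 at an unadjusted p below 0.05, beside 8.82% of all genes. Without the 2 libraries, where 1.42% of all genes were called, 1 did, the D1-type dopamine receptor Dop1R1, higher on LPS by 0.34 ± 0.07 (edgeR, adjusted p = 0.0415). With sex 0 passed as labelled, with 4 at an unadjusted p below 0.05, beside 17% of all genes. Without the 2 libraries, where 7.72% of all genes were called, 2 did, both higher in males: the tyramine receptor TyrR by 0.41 ± 0.09 (edgeR, adjusted p = 0.017) and SerT by 0.29 ± 0.08 (edgeR, adjusted p = 0.0364).

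Of 44 genes of G protein, cyclic AMP and calcium signalling 43 were tested. Which head cells express them, and whether beside an amine receptor, was not measured. In SD6 against SD3, 1 was higher and 7 lower, beside 20.2% of all genes called, with Crtc, the CREB coactivator, at −0.57 ± 0.09, Pka-R1, a regulatory subunit of protein kinase A, at −0.43 ± 0.07, Galphaq, the G protein subunit of calcium-coupled receptors, at −0.47 ± 0.08, the adenylyl cyclase gene Ac76E at −0.35 ± 0.07 and the phosphodiesterase gene Pde11 at −0.38 ± 0.08. In SD3 against SD2, 7 were higher and 0 lower, beside 23.2% of all genes called, among them Pde11 at 0.74 ± 0.08, Galphaq at 0.46 ± 0.08, Pde6 at 0.29 ± 0.08, the adenylyl cyclase rut of learning and memory at 0.26 ± 0.07 and Arr1 at 0.29 ± 0.08. In SD6 against SD2, 6 were higher and 5 lower, beside 22.4% of all genes called, the lower with Crtc at −0.50 ± 0.09 and Ac76E at −0.32 ± 0.06, and the higher with Pde11 at 0.36 ± 0.08, Ac13E at 0.31 ± 0.08 and Ac78C at 0.29 ± 0.08. For diet and for sex 0 of 43 passed as labelled in edgeR, with 2 and 6 at an unadjusted p below 0.05, beside 8.82% and 17% of all genes. Without the 2 libraries, where 1.42% and 7.72% of all genes were called, 1 gene passed for each: Pka-C3 was lower on LPS, at −0.35 ± 0.07 (edgeR, adjusted p = 0.0216) and rut higher in males by 0.22 ± 0.06 (edgeR, adjusted p = 0.0457).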

How the data were processed

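Stranded poly(A) libraries from 100 ng of RNA with 20 pg of added spike-ins were sequenced from 1 end over 75 bases, per the labels' protocols. The submitters' processing notes name HTSeq 0.6.1p1, TopHat2 2.1.0, CASAVA 1.8.2 and bcl2fastq 1.8, with no role or order. The authors deposited whole-number counts of reads per gene, not normalized. The sources used here name no genome build or annotation. Spike-in entries and entries that name no gene were left out. Reads assigned to no gene were 2.93% to 4.96% in the larger run and 10.4% and 14.9% in the smaller, and ambiguous reads 2.65% to 3.91%. Per the BDGP6.54 annotation, 5-HT1A and 5-HT1B lie on chromosome arm 2R, Oct-TyrR on 3L and the others on 3R, and no receptor shares exonic bases with another gene on either strand.

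edgeR 4.0.16 (R 4.3.3) was run on the counts (TMM, filterByExpr with a minimum count of 10, quasi-likelihood F-test, Benjamini-Hochberg adjustment over all genes tested, threshold 0.05). Diet and sex were fitted with strain as a block (12 samples, 7 residual degrees of freedom), and strains with diet and sex as terms (10 samples, 5 residual degrees of freedom). The scripts were tested on simulated data. Alternatives used DESeq2 1.42.0, limma-voom (limma 3.58.1), RLE normalization, other filters, each library of male LPS SD2 alone, other treatments of the doubtful libraries, other blocks and leave-one-out. Strain numbers pair the samples by design, and same-numbered samples deviated from their group means together (r 0.621 to 0.807 outside the 2 doubtful libraries, −0.375 to −0.261 in pairs with them). Each pool is 1 replicate, so p-values measure the spread between pools, and both sexes of each line on each diet were treated as separate samples. The receptors and the gene lists were chosen with earlier results of these data known. All receptors and all synthesis and transport genes are named, and of other lists up to 5 called genes with the smallest p. Genes like a receptor were the 3 with the highest r of log2(CPM + 0.5) for receptors called between strains. Of 18 genes in the synthesis list 17 matched, speck being the exception. Of 10 testis markers 7 had at most 3 reads in every sample.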

Additional observations from a re-analysis of the deposited data

Results flagged for a closer look

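In 8 of 70 groups of 4 or 6 samples tested for a lone sample, 1 sample stood apart from the others by Dixon's 95% criterion; chance gives about 3.5 in 70, or 1 in 20. The library labelled male LPS SD6 was the lone sample in 5 of them. It was highest of the SD6 label for 5-HT2B at 22.2 CPM (next 15.2), Octbeta1R at 83.1 CPM (next 45.9), Octbeta2R at 93.65 CPM (next 60.1) and Octbeta3R at 38.3 CPM (next 29.96), and highest of the LPS samples for 5-HT1B at 23.8 CPM (next 19.7). The library labelled male LPS SD3 was lowest of the SD3 label for 5-HT1A, at 44.3 CPM (next 61.3). The male HPS SD3 sample was highest of the SD3 label for 5-HT1B, at 22.9 CPM (next 19.5), and the male HPS SD6 sample highest of the SD6 label for 5-HT2A, at 140.9 CPM (next 129.6). The first 6 belong to the 2 libraries whose reads go against their strain labels.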

How the results depend on the processing

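Of the 10 receptors, SD6 against SD2 gave 1 call instead of 3 in DESeq2, with no filter on low counts, with male LPS SD2 from the larger run alone and without the SD2 males. Of all genes 2016 of 10373 were called in DESeq2, 2363 of 14354 with no filter and 2145 of 10368 with the larger run alone. With the 2 doubtful libraries kept as labelled all 3 strain comparisons gave 0 calls, beside 0% to 10% of all genes. With their labels exchanged SD3 against SD2 gave 2, beside 3082 of 10026 genes, and sex 1, beside 11.2% of genes. Leaving out 1 sample at a time gave 2 to 6 calls for SD6 against SD3, 1 to 4 for SD6 against SD2, 0 to 1 for SD3 against SD2 and, over the 10 samples, 0 to 1 for diet. Without the replicate block by strain, diet and sex each gave 0 calls, with Octbeta2R at −0.15 for diet and Oct-TyrR at 0.27 for sex. The block changed no other call. Shares of all genes called are not given for the fits with 1 sample left out, without the SD2 males or without the block.

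The sign turned in 41 of 1320 alternatives for single receptors, in 0 of them with an adjusted p below 0.05 and at a log2 value of at most 0.11 in size; the cause was not tested. With limma-voom Octbeta3R was −0.0083 for sex and 5-HT1A 0.00816 for SD6 against SD2. 5-HT1A was 0.00262 for the larger run alone, 0.0627 as labelled and 0.0725 without the SD2 males. As labelled 5-HT2B and Octbeta1R were −0.0882 and −0.0554 for SD3 against SD2, and 5-HT1B, Octbeta2R and Oct-TyrR 0.038, 0.0378 and 0.0383 for SD6 against SD3. With labels exchanged Oct-TyrR was 0.027 for SD3 against SD2. For diet, the smaller run alone gave 0.00531 for 5-HT1B and 0.0126 for Oct-TyrR, leaving out the SD2 males 0.0206 for 5-HT1B, and sexes summed with a replicate block −5.79e-06 for Octbeta3R. For sex, Octbeta3R was −0.00621 without the SD2 males. Leaving out 1 sample gave ranges of −0.000798 to 0.193 (5-HT1A), −0.0507 to 0.0316 (5-HT1B), −0.0967 to 0.0314 (Oct-TyrR), −0.103 to 0.242 (Octbeta1R) and −0.0412 to 0.145 (Octbeta3R) for diet, and −0.0566 to 0.139 (Octbeta3R) for sex. For strains these were −0.132 to 0.0774 (5-HT1A) and −0.112 to 0.202 (Octbeta2R) for SD6 against SD2, −0.0935 to 0.00386 (5-HT1B) for SD6 against SD3 and −0.044 to 0.19 (5-HT2B) for SD3 against SD2. Over the 10 samples 5-HT1B ran from −0.0501 to 0.029 for diet, with 0.000322 without the female LPS SD3 sample.

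With 1 pool for each diet, sex and strain and 110 to 3249 reads per receptor and sample, differences smaller than the 95% intervals given are not resolved.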
